A study of Homo sapiens with 6 samples.

Results

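Transcript levels of 10 BCL2 family genes were examined in NCI-H460 cells with a stable knockdown of PRMT5, out of 58825 genes in the deposited tables. The genes were selected by name and are BCL2, BCL2L1, MCL1, BAX, BAK1, BBC3, PMAIP1, BCL2L11, BID and BAD. All 10 passed the filter on low counts, which kept 20295 genes. The rule that chose them goes by gene name and uses no measured value, but the list was drawn up with earlier results of these data known.

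The BCL2 family controls whether the outer membrane of the mitochondrion stays intact. The effectors BAX and BAK1 can form pores that release cytochrome c and so lead to caspase activation. The guardians BCL2, BCL2L1 (which encodes BCL-XL) and MCL1 hold the effectors in check, and the BH3-only proteins bind guardians or effectors and promote pore formation. Much of the control of this family acts on the proteins, through cleavage, phosphorylation, turnover and binding, none of which RNA sequencing measures.

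NCI-H460 is a human line derived from a large cell lung carcinoma, and the sample labels call it lung adenocarcinoma. By the labels, cells of the control group, GFPkd, carried a lentiviral shRNA directed at GFP, where the study's text speaks only of a control shRNA and does not name GFP, and cells of the PRMT5kd group carried one directed at PRMT5, an arginine methyltransferase. According to the methods, virus-infected cells of the knockdown were selected with puromycin as a stable population. The methods do not describe the infection or selection of the control cells separately. Each group had 3 libraries, described in the study as biological replicates. Several PRMT5 hairpins were designed in the study, the labels do not say which of them the sequenced cells carried, and no further hairpin was sequenced as a separate group.

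Values are given as CPM, the count scaled to the TMM-adjusted library size, for a gene across libraries, and as FPKM, which also divides by gene length, for comparing genes. Total counts per library ranged from 53531257 to 70518401. PRMT5 was 133 ± 8.90 CPM in GFPkd and 43.2 ± 4.28 CPM in PRMT5kd (SD, n = 3), a log2 fold change of -1.62 (SE 0.094, edgeR adjusted p = 0.0063), so the targeted gene followed the labels. The 6 epithelial markers had counts in every library, with a summed FPKM of 344 to 361 in GFPkd and 318 to 328 in PRMT5kd, although EPCAM and CDH1 were at most 0.52 FPKM. None of 4 lung adenocarcinoma markers had counts in every library. Summed FPKM was 1.36 to 1.48 in GFPkd and 1.96 to 2.47 in PRMT5kd for 6 endothelial markers. Of these, 4 were higher without overlap, against 11.0% of all genes tested. VWF had 0 counts in every GFPkd library and 128, 105 and 122 counts in PRMT5kd (log2 fold change 9.98, edgeR adjusted p = 0.034). KDR also had 0 counts in every GFPkd library, and 12, 22 and 26 counts in PRMT5kd. Summed FPKM of 6 blood cell markers was 1.15 to 1.28 in GFPkd and 1.62 to 2.53 in PRMT5kd, with CD3E and MS4A1 at 0 in all libraries. The part of these low markers in any difference below was not tested. In bulk RNA of this kind, fewer cells with a transcript and less transcript per cell cannot be told apart.

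All 10 proteins share the BH3 motif, the helix through which family members bind one another, and the coding stretches below show it in the 4 genes whose differences were furthest from 0. Each stretch is 33 bases of the coding strand, read 5′ to 3′ from GENCODE release 29 on GRCh38. Capitals mark the codon of the conserved leucine and the adjoining codons of a small residue and the aspartate of the core motif.
MCL1: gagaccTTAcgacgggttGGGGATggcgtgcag
PMAIP1: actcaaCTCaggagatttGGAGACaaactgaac
BCL2L11: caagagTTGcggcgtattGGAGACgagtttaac
BID: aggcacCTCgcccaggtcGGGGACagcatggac
The MCL1 stretch lies at chr1:150578868-150578900 on the minus strand, in exon 1 of 3 of its principal coding transcript, and the PMAIP1 stretch at chr18:59902667-59902699 on the plus strand, in exon 2 of 2. The BCL2L11 stretch lies at chr2:111150097-111150129 on the plus strand, in exon 4 of 5, and the BID stretch at chr22:17739418-17739450 on the minus strand, in exon 4 of 6. The pattern searched was a leucine, any pair of residues, a hydrophobic residue (alanine included), a small residue and an aspartate, and it had 1 match in the principal protein of each of the 10 genes. In PMAIP1 it covered residues 29 to 34 of a protein of 54 residues, and in MCL1 residues 213 to 218 of 350. The deposited tables hold 1 value per gene, so isoforms that lack the BH3 stretch were not measured separately.

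The guardians MCL1 and BCL2L1 stood at the top of the family in level, while the guardian BCL2 was near the bottom. MCL1 had a mean of 94.1 ± 4.76 FPKM in GFPkd and 117 ± 21.5 FPKM in PRMT5kd (SD, n = 3), above 98.3% of the genes tested. BCL2L1 followed with 20.9 ± 0.853 FPKM and 21.8 ± 1.74 FPKM. BCL2, the founding member of the family, was at 1.54 ± 0.0902 FPKM and 1.5 ± 0.0252 FPKM. The summed FPKM of BCL2, BCL2L1 and MCL1 was therefore mostly MCL1, which took 80.7% ± 0.917 of it in GFPkd and 83.3% ± 1.38 in PRMT5kd. This sum leaves out the guardian BCL2L2, which had 8.12, 0.57 and 9.48 FPKM in GFPkd and 10.4, 0.83 and 0.48 FPKM in PRMT5kd.

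Below BCL2L1, 5 genes lay close together. In GFPkd, mean levels were 10.7 FPKM for BAK1, 10.3 FPKM for BAD, 9.42 FPKM for BAX, 8.16 FPKM for PMAIP1 and 8.15 FPKM for BID. Each of these overlapped the next in the order when the 3 libraries of GFPkd were compared, so neighbours in this order are not separated from the spread. Further apart, all GFPkd libraries of BAK1 and BAD lay above those of PMAIP1 and BID. BCL2L11 and BCL2 also overlapped each other, at 2.0 FPKM and 1.54 FPKM. BBC3 was lowest, at 0.973 ± 0.0681 FPKM, and all its GFPkd libraries lay below those of BCL2. In PRMT5kd the mean of PMAIP1, 11.3 ± 1.02 FPKM, stood above those of BAK1, BAD and BAX, which were 10.7, 10.2 and 8.78 FPKM, but the PMAIP1 and BAK1 libraries overlapped.

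**Figure D1:**
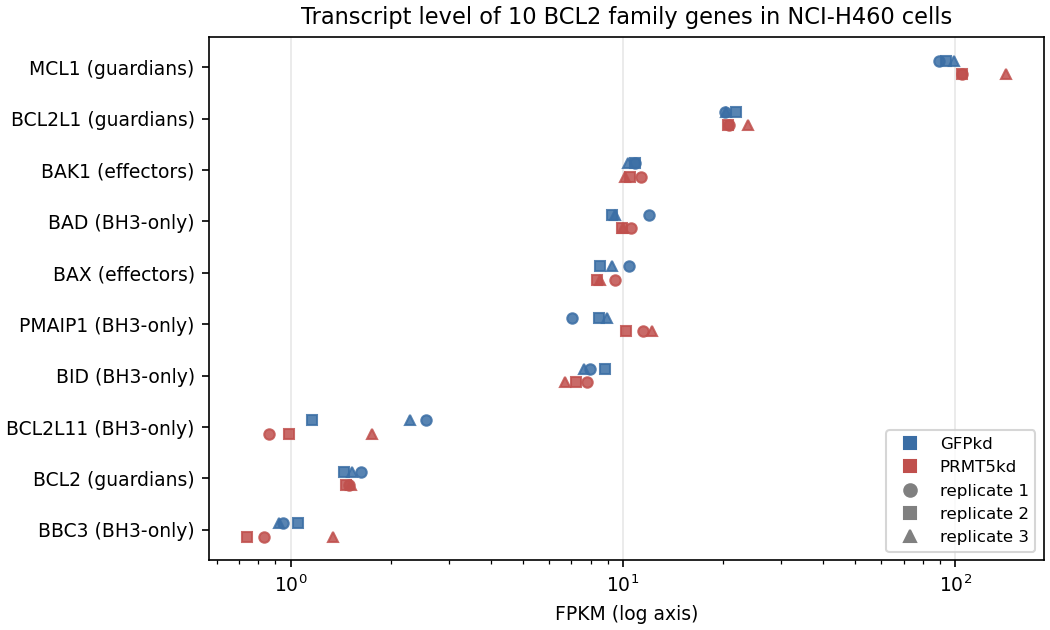
FPKM (x axis, log scale) of 10 BCL2 family genes (y axis, with their role, ordered by the GFPkd mean), with 1 point per library, colour for group and marker shape for replicate number. MCL1 lies near 100 FPKM and BBC3 near 1, and PMAIP1 is the gene of the middle cluster whose PRMT5kd points all lie to the right of its GFPkd points.

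The comparison of PRMT5kd with GFPkd asked whether the transcript levels of these regulators differed when PRMT5 was reduced. With edgeR's quasi-likelihood test, none of the 10 genes reached the adjusted p of 0.05, which 0.0690% of all genes tested did. At an unadjusted p under 0.05, PMAIP1 was higher and BID was lower, which is 2 of 10 genes against 12.8% of all genes tested. No gene of the family combined this p with a fold change over 1.5, a rule met by 3.82% of the genes tested. BCL2L11, lower in PRMT5kd, met it with DESeq2, with the likelihood ratio test, and without GFPkd replicate 2 or PRMT5kd replicate 3. The PRMT5kd and GFPkd libraries did not overlap in CPM for PMAIP1 and MCL1, higher in PRMT5kd, against 11.0% of all genes, and for BID, lower in PRMT5kd, against 10.7%. The median log2 fold change of the 10 genes was -0.07, with 2 positive and 8 negative values, beside 0.01 over all genes tested. These counts are few, and no test of the family as a set was made.

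**Figure D2:**
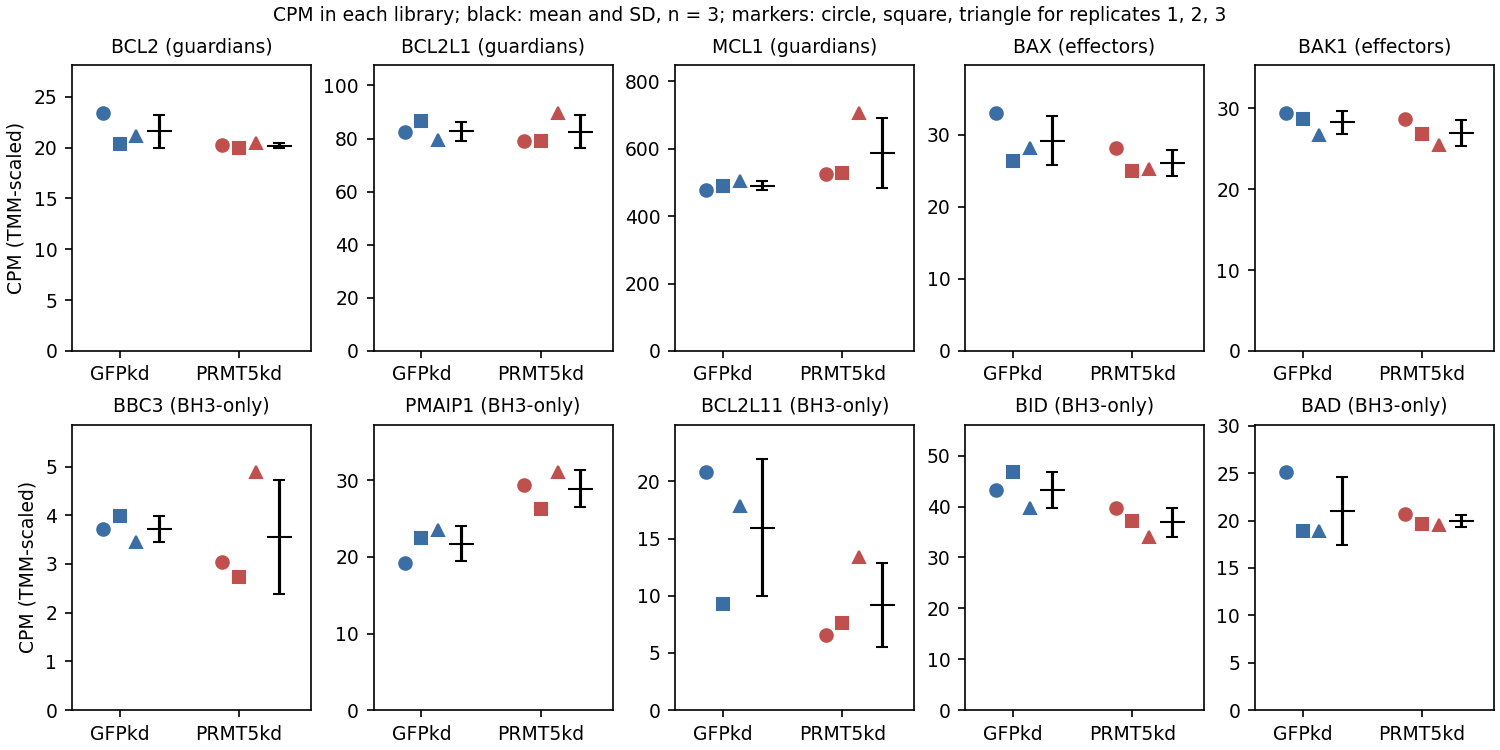
CPM (y axis, from 0, with its own scale in each panel) of 10 BCL2 family genes in 3 GFPkd (blue) and 3 PRMT5kd (red) libraries, with the mean and SD in black. Groups are apart in the panels of PMAIP1, MCL1 and BID, and BCL2L11 shows the widest scatter within a group relative to its mean.

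PMAIP1 encodes NOXA, a BH3-only protein that binds MCL1 in particular. Its gene lies at chr18:59899948-59904306 on the plus strand, with no annotated exon of another gene over its exons. It had 19.2, 22.5 and 23.5 CPM in GFPkd and 29.4, 26.3 and 31.1 CPM in PRMT5kd. All PRMT5kd libraries were above all GFPkd libraries, with the closest pair being GFPkd replicate 3 and PRMT5kd replicate 2. The means were 21.8 ± 2.23 and 28.9 ± 2.41 CPM (SD, n = 3), a fold of 1.33 with a 95% interval from 1.11 to 1.6. The log2 fold change was 0.41 (SE 0.111), the edgeR adjusted p was 0.248, and the exact two-sided permutation test gave 0.10, the smallest value that 3 against 3 libraries allow. With each library left out in turn, the log2 fold change stayed between 0.33 and 0.47, and its lowest adjusted p under any alternative was 0.057, with DESeq2. PMAIP1 thus had the smallest unadjusted p of the family, 0.0078 in edgeR, without passing the adjustment over all genes.

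MCL1, a guardian with a short-lived protein, lies at chr1:150574551-150579738 on the minus strand. It had 477, 490 and 505 CPM in GFPkd and 525, 528 and 706 CPM in PRMT5kd. The GFPkd libraries were close together, PRMT5kd replicates 1 and 2 were just above them, and PRMT5kd replicate 3 stood far above the rest. The log2 fold change was 0.26 (SE 0.119, 95% interval -0.02 to 0.54, edgeR adjusted p = 0.42), and the exact permutation test gave its minimum of 0.10. Without PRMT5kd replicate 3 the log2 fold change was 0.10, and with any other library left out it was at least 0.24. The counts behind these values, 28650 to 40631 per library, make counting error small beside the spread between libraries. ADAMTSL4-AS1 overlaps exons of MCL1 on the same strand and had only 11 to 23 counts per library.

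BCL2L1 (chr20:31664452-31723989, minus strand) and BCL2 (chr18:63123346-63320128, minus strand) had small differences. BCL2L1 had 82.3, 86.4 and 79.3 CPM in GFPkd and 79.1, 79.1 and 89.7 CPM in PRMT5kd, and the groups overlapped fully. Its log2 fold change was -0.001 (SE 0.0744), with a fold interval from 0.884 to 1.13, and its sign turned in 10 of 18 alternatives. BCL2 had 23.4, 20.3 and 21.1 CPM in GFPkd and 20.2, 19.9 and 20.4 CPM in PRMT5kd. The groups overlapped at GFPkd replicate 2, and the log2 fold change was -0.10 (95% interval -0.31 to 0.12, edgeR adjusted p = 0.691). For both genes the interval of the fold change leaves out a change of 1.5-fold in either direction.

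The effectors BAX (chr19:48954815-48961798, plus strand) and BAK1 (chr6:33572547-33580293, minus strand) had similar levels, and for both the groups overlapped. BAX had 33, 26.4 and 28.1 CPM in GFPkd and 28.1, 24.9 and 25.2 CPM in PRMT5kd. GFPkd replicate 1 was the highest library for BAX, and without it the log2 fold change went from -0.16 to -0.06. BAK1 had 29.4, 28.7 and 26.7 CPM in GFPkd and 28.7, 26.8 and 25.5 CPM in PRMT5kd, values that interleave between the groups. Its log2 fold change was -0.07 (95% interval -0.27 to 0.13, edgeR adjusted p = 0.781), and that of BAX had an interval from -0.42 to 0.10 (edgeR adjusted p = 0.584). The FPKM ratio of BAX to BAK1 was 0.880 ± 0.0882 in GFPkd and 0.825 ± 0.0265 in PRMT5kd, which also overlapped.

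Among the BH3-only genes, BID encodes the protein that caspase-8 cleaves to connect death receptors with the mitochondrion, and lies at chr22:17734138-17774770 on the minus strand. BID had 43.3, 46.8 and 39.7 CPM in GFPkd and 39.7, 37.1 and 34.0 CPM in PRMT5kd. The groups did not overlap in CPM, but GFPkd replicate 3, at 39.69, and PRMT5kd replicate 1, at 39.65, almost met. The fold was 0.853 with a 95% interval from 0.731 to 0.996, the log2 fold change was -0.23 (SE 0.0941), and the edgeR adjusted p was 0.380. In FPKM the groups overlapped, with 7.98, 8.82 and 7.64 in GFPkd and 7.78, 7.22 and 6.71 in PRMT5kd, so the separation of BID depended on the scale. The exact permutation test on CPM gave 0.10.

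BCL2L11 encodes BIM, a BH3-only protein that binds every guardian and can also activate effectors, and lies at chr2:111119378-111168447 on the plus strand. It had 20.8, 9.28 and 17.8 CPM in GFPkd and 6.61, 7.61 and 13.4 CPM in PRMT5kd. GFPkd replicate 2 lay within the PRMT5kd range, and PRMT5kd replicate 3 lay within the GFPkd range. The means, 16.0 ± 5.99 and 9.20 ± 3.66 CPM, gave the largest difference of the family, a log2 fold change of -0.80 (SE 0.369, 95% interval -1.67 to 0.08, edgeR adjusted p = 0.421). Within-group spread was also the largest here, with an SD of 0.58 on the log2 CPM scale against a median of 0.22 over the 20099 tested genes with counts in at least 2 libraries of each group. Leaving out single libraries moved the log2 fold change between -1.17 and -0.56. Counts of 361 to 1398 per library lie behind these values. An exon of MIR4435-2HG overlaps BCL2L11 on the other strand, with 1932 to 3312 counts per library, and the sources used here do not state whether the counting used strand.

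BBC3 encodes PUMA, a BH3-only protein, and lies at chr19:47220822-47232766 on the minus strand. It had 3.72, 3.98 and 3.44 CPM in GFPkd and 3.04, 2.73 and 4.89 CPM in PRMT5kd. PRMT5kd replicates 1 and 2 were below all GFPkd libraries and PRMT5kd replicate 3 was above them. With 166 to 281 counts per library it was also the least deeply covered gene of the family, and its 95% interval, -0.64 to 0.51 around a log2 fold change of -0.07, does not leave out a change of 1.5-fold downwards. BAD, at chr11:64269830-64284704 on the minus strand, encodes a BH3-only protein held inactive by phosphorylation, and had 25.1, 18.9 and 18.9 CPM in GFPkd and 20.7, 19.6 and 19.5 CPM in PRMT5kd. The PRMT5kd libraries of BAD lay inside the range of the controls, which GFPkd replicate 1 widened, and the log2 fold change was -0.07 (SE 0.132, edgeR adjusted p = 0.850). Without GFPkd replicate 1 it was 0.07.

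**Figure D3:**
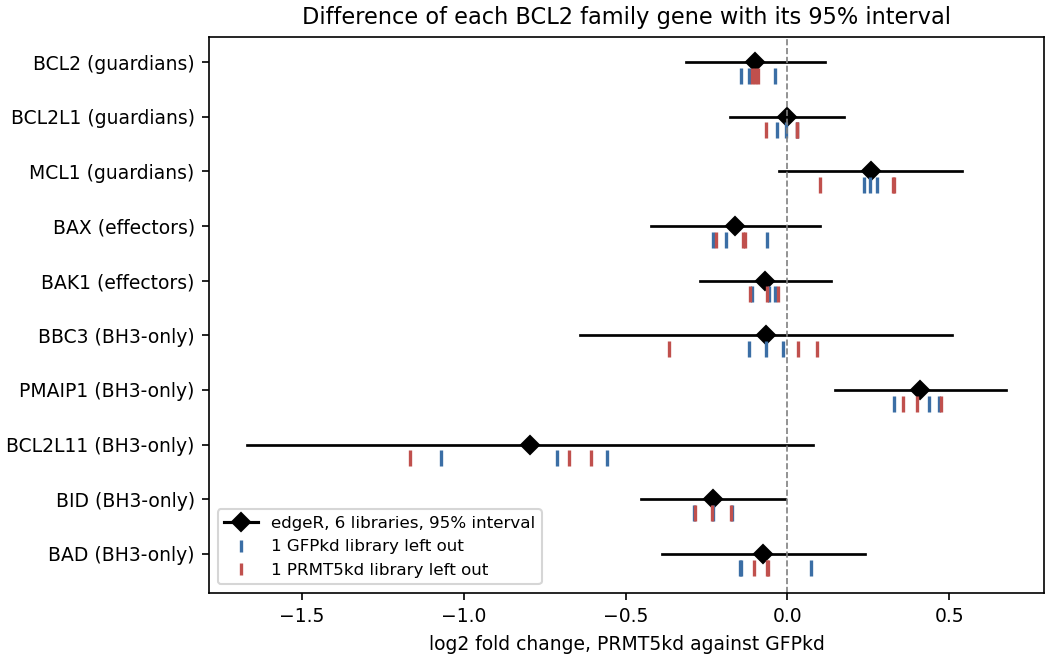
Log2 fold change of PRMT5kd against GFPkd (x axis) for 10 BCL2 family genes (y axis), with the edgeR estimate as a diamond, its 95% interval as a line, and ticks for the estimates with 1 GFPkd (blue) or 1 PRMT5kd (red) library left out. The intervals of PMAIP1 and BID leave out 0, that of BCL2L11 is the widest, and the tick of MCL1 at 0.10 is the estimate without PRMT5kd replicate 3.

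The make-up of each role was then described from FPKM, as shares that are independent of library scaling. PMAIP1 took 23.1%, 29.4% and 30.7% of the summed FPKM of the 5 BH3-only genes in GFPkd and 36.5%, 35.1% and 38.1% in PRMT5kd. Every PRMT5kd share was above every GFPkd share, and the means were 27.7% ± 4.08 and 36.6% ± 1.55 (SD, n = 3). BID took 27.6% ± 2.63 and 23.5% ± 2.20, and BCL2L11 took 6.72% ± 2.35 and 3.88% ± 1.44. The sum over the 5 genes was nearly level, at 29.5 ± 0.907 FPKM and 30.9 ± 1.57 FPKM, and overlapped between groups. The ratio of PMAIP1 to BID in FPKM was 0.882, 0.958 and 1.18 in GFPkd and 1.48, 1.41 and 1.82 in PRMT5kd, again without overlap.

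On the guardian side the sum over BCL2, BCL2L1 and MCL1 was 117 ± 4.86 FPKM in GFPkd and 141 ± 23.3 FPKM in PRMT5kd, mostly MCL1 in both groups. The ratio of MCL1 to BCL2L1 in FPKM was 4.4, 4.3 and 4.83 in GFPkd and 5.03, 5.06 and 5.98 in PRMT5kd. The PRMT5kd libraries were all above the controls in this ratio, including the pair with lower MCL1. PMAIP1 and its binding partner MCL1 were both higher in all PRMT5kd libraries, and their FPKM ratio was 0.0788, 0.0898 and 0.0909 in GFPkd and 0.109, 0.0974 and 0.0860 in PRMT5kd. That ratio overlapped between groups, since PRMT5kd replicate 3, the library with the highest MCL1, lay inside the GFPkd range. These shares and ratios were chosen after the values of the genes had been seen and have no test of their own.

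The other genes of the BCL2 family gave 11 tested genes out of 14, of which 4 had positive and 7 had negative log2 fold changes. None passed the adjusted p in edgeR, and 2 were higher and 1 was lower at an unadjusted p under 0.05, 27.3% of these genes against 12.8% of all genes tested. BMF, a BH3-only gene related in role to BCL2L11, was 0.978 ± 0.336 CPM in GFPkd and 1.99 ± 0.203 CPM in PRMT5kd, with no overlap, a log2 fold change of 1.02 and an edgeR adjusted p of 0.271. BCL2L13, a mitochondrial outer membrane protein with a role in mitophagy, was 87.0 ± 3.26 and 99.99 ± 1.83 CPM, also without overlap (log2 fold change 0.20, edgeR adjusted p = 0.266). BIK, a BH3-only gene of the endoplasmic reticulum, was 1.80 ± 0.436 and 1.18 ± 0.115 CPM, and its groups overlapped (log2 fold change -0.61, edgeR adjusted p = 0.385).

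Of the remaining family genes, BECN1 was higher without overlap, with a log2 fold change of 0.14, while BOK and BNIP3 were lower without overlap, with -0.31 and -0.15. Their edgeR adjusted p values were 0.423, 0.447 and 0.410. In FPKM the groups overlapped for BOK and BNIP3, so the separation of these genes depended on the scale. BCL2L15, BCL2L12, BNIP3L and HRK overlapped between groups, with log2 fold changes of -0.37, -0.08, -0.07 and 0.14. BCL2L2, the guardian BCL-w, had 2790, 199 and 2883 counts in GFPkd and 2720, 281 and 133 counts in PRMT5kd, and its libraries differed 16.6-fold in FPKM within GFPkd and 21.6-fold within PRMT5kd. High and low libraries occurred in both groups, and the log2 fold change of -0.70 had an SE of 1.3. BCL2A1 had no counts in any library, and BCL2L10 and BCL2L14 did not pass the filter.

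Upstream of the family, 1 of 17 regulators passed the adjusted p in edgeR, against 0.0690% of all genes tested. DDIT3 encodes CHOP, a stress-induced transcription factor known to raise BCL2L11, BBC3 and TNFRSF10B in stressed cells. It had 15.0, 17.1 and 18.9 CPM in GFPkd and 40.4, 40.5 and 42.5 CPM in PRMT5kd, and rose with a log2 fold change of 1.28 (SE 0.103, edgeR adjusted p = 0.020). The 3 PRMT5kd libraries of DDIT3 were close together and far above the controls. With single libraries left out its log2 fold change stayed between 1.19 and 1.36, while the edgeR adjusted p was 0.084 without GFPkd replicate 2 and 0.078, 0.054 and 0.068 without PRMT5kd replicates 1, 2 and 3. Exons of AC022506.1 overlap DDIT3 on the same strand, and exons of MARS and MBD6 on the other. ATF4, which encodes an activator of DDIT3 and PMAIP1, overlapped between groups at 502 ± 6.75 and 520 ± 13.6 CPM (log2 fold change 0.05, edgeR adjusted p = 0.691). MDM2, which encodes a ubiquitin ligase, had a log2 fold change of 0.11 and an edgeR adjusted p of 0.764. DYNLL1, a dynein light chain that binds BIM and BMF, was 178 ± 28.3 and 134 ± 8.06 CPM without overlap (log2 fold change -0.40, edgeR adjusted p = 0.271).

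On the mitochondrial pathway list, 9 of 10 genes had negative log2 fold changes, with a median of -0.20, and none passed the adjusted p. Over all 20295 genes tested, 9910 values were negative. CYCS, which encodes cytochrome c, was 393 ± 20.2 and 328 ± 7.74 CPM without overlap (log2 fold change -0.26, edgeR adjusted p = 0.196). AIFM1, which encodes apoptosis-inducing factor, was 171 ± 10.7 and 148 ± 5.38 CPM without overlap (log2 fold change -0.20, edgeR adjusted p = 0.303). ENDOG and VDAC3 were the other genes of this list that were lower at an unadjusted p under 0.05, and VDAC3 overlapped between groups in FPKM. At this p the list had 40.0% of its genes, all lower, against 12.8% of all genes tested in either direction. The caspases gave 4 positive and 3 negative values among 7 genes (median 0.07 on the log2 scale), and none passed the adjusted p.

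On the list of 8 genes made up of inhibitors of apoptosis and XAF1, which is not itself counted as an inhibitor, 6 values were positive. One of these was XAF1, which had no counts in GFPkd replicates 1 and 2 and PRMT5kd replicate 1 (log2 fold change 0.05, SE 1.76). BIRC5, which encodes survivin and is also a mitotic gene, was 41.7 ± 4.2 and 30.9 ± 3.10 CPM without overlap (log2 fold change -0.43, edgeR adjusted p = 0.233). XIAP, a direct caspase inhibitor, had 36.8, 43.5 and 14.4 CPM in GFPkd and 13.2, 12.2 and 12.1 CPM in PRMT5kd. GFPkd replicate 3 of XIAP was close to the PRMT5kd libraries and far from the other controls (log2 fold change -1.34, SE 0.369, edgeR adjusted p = 0.253). Without that library the log2 fold change was -1.68 (edgeR adjusted p = 0.017). Leaving out the control nearest to PRMT5kd widens the difference by itself, so no conclusion is drawn from this value. In edgeR's quasi-likelihood test XIAP did not pass the adjusted p with any other library left out. In the death receptor pathway, 6 of 11 values were positive and TNFRSF10B, a receptor for TRAIL, was 132 ± 2.12 and 152 ± 1.92 CPM without overlap (log2 fold change 0.21, edgeR adjusted p = 0.213).

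Across these 6 lists, 64 of 68 genes were tested, with 33 positive and 31 negative values and a median log2 fold change of 0.05. At an unadjusted p under 0.05, 8 were higher and 10 were lower, 28.1% of the genes against 12.8% of all genes tested. The groups did not overlap for 10 genes that were higher and 11 that were lower, 32.8% of the genes against 21.7% of all genes tested (11.0% higher and 10.7% lower). DDIT3 was the only one to pass the adjusted p in edgeR, against 0.0690% of all genes tested. No test of a list as a set was made.

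**Figure D4:**
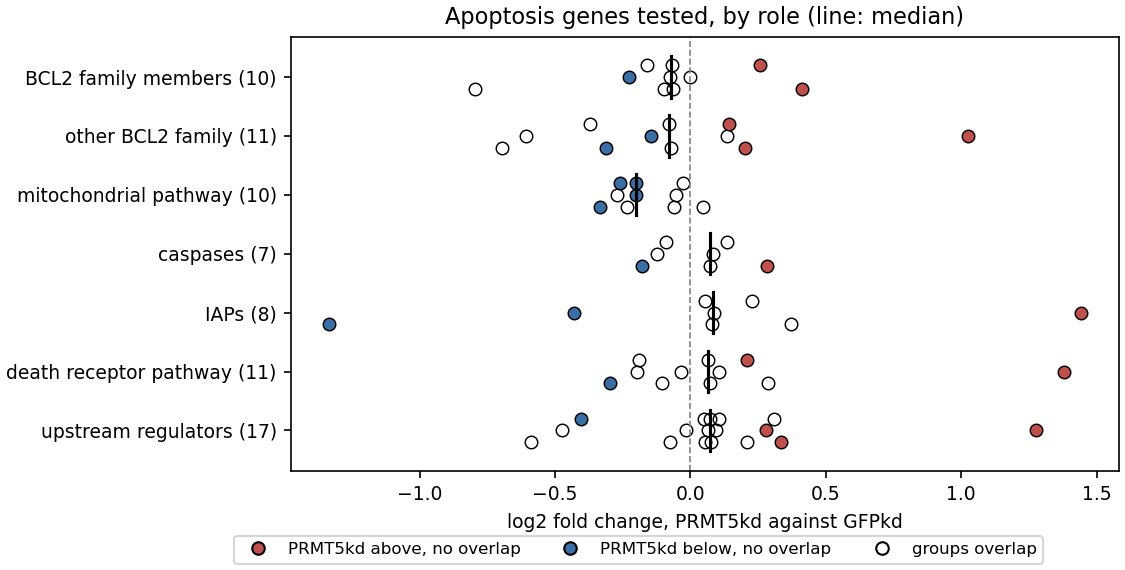
Log2 fold change of PRMT5kd against GFPkd (x axis) for each tested gene of the BCL2 family and of 6 further apoptosis lists (y axis, with the number of genes tested), with filled points where the 3 libraries of one group do not overlap the other and a black line at the median. The mitochondrial pathway has the lowest median, -0.20, and the point near 1.28 in the lowest row is DDIT3.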

How the data were processed

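RNA of 3 GFPkd and 3 PRMT5kd cultures of NCI-H460 cells was sequenced as stranded mRNA libraries according to the methods. The submitters' processing notes name cutadapt 1.9, HISAT2 2.0.4, StringTie 1.3.4d and GRCh38, while the methods print GRCm38, a mouse assembly, and add Ballgown. Each library's estimated counts per gene were deposited unnormalized by the authors, as whole numbers. The authors also deposited FPKM values per gene and library, which are scaled by gene length and library size. Between 1214 and 1319 genes per library had exactly 4 counts, against 462 to 546 with 3, so a count was not read as 1 fragment and error was taken from the spread between libraries. Whether counting used strand is not given in the sources used here, and counts of overlapping genes may have been divided. Among the 10 genes, an exon of another gene overlaps MCL1 and BBC3 on the same strand and BCL2L1, BAK1, BBC3, BCL2L11 and BAD on the other strand.

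Counts were normalized by TMM and filtered with filterByExpr in edgeR 4.0.16 (R 4.3.3). Across 20295 genes, the edgeR quasi-likelihood fit was used with p values adjusted by Benjamini-Hochberg and a threshold of 0.05. Standard errors came from the F statistic. For single genes an exact permutation test over libraries, two-sided, was added, which cannot go below 0.10. Groups came from the sample labels, and no pair of libraries was a duplicate (chi-square per degree of freedom of 31.6 or more). Alternatives were other normalizations, no filter, DESeq2 1.42.0, a likelihood ratio test, limma 3.58.1 and a linear model on log2(FPKM + 1), a pseudocount of 0.1, a minimum mean FPKM of 0.5, counts divided by 4, a length correction, leaving out each library, and a replicate block. Scripts were tested on simulated counts with known changes.

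The BCL2 family genes and the other lists were chosen with earlier results of these data known. Genes named are the 10 BCL2 family genes, PRMT5, every other family gene that passed the filter, MDM2, DDIT3, ATF4, and at most 5 higher and 5 lower genes of the other apoptosis lists, by smallest p, with an unadjusted p under 0.05 and no overlap between groups. ENDOG, VDAC3, overlapping neighbours, and genes singled out for their spread were added after their values were seen. Some genes that the rule names are not reported here. Positions and BH3 stretches came from GENCODE release 29 on GRCh38, from the principal transcript with the longest coding sequence.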

Additional observations from a re-analysis of the deposited data

How the results depend on the processing

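No alternative brought any of the 10 BCL2 family genes past an adjusted p of 0.05, and 2 or 3 of them had no overlap between groups on every scale tried. PMAIP1 kept a positive log2 fold change in all 18 alternatives, MCL1 in all 18 (0.10 to 0.33), and BID (-0.29 to -0.15) and BCL2L11 (-1.17 to -0.43) a negative one. The sign turned for BAD without GFPkd replicate 1 (0.075, within -0.15 to 0.075 over the libraries left out), for BBC3 without PRMT5kd replicate 1 (0.03) or 2 (0.092), whose values with 1 library left out ran from -0.37 to 0.092, and for BCL2L1, which stood at -0.001. For BCL2L1 the turned values were 0.0021 with counts divided by 4, 0.0031 with the length correction, 0.00039 with upper-quartile normalization, 0.057 with limma on log2(FPKM + 0.1), 0.055 with limma on log2(FPKM + 1), with or without the filter, and with the linear model, 0.031 without GFPkd replicate 2, and 0.029 without PRMT5kd replicate 1 or 2, and leaving out single libraries gave -0.065 to 0.031. On the FPKM scale the median log2 fold change of all genes was 0.04 to 0.05 with a filter, beside 0.01 on counts.

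The number of genes called moved most. Against 14 (10 higher and 4 lower) in edgeR's quasi-likelihood test, DESeq2 called 530, the likelihood ratio test 184, limma on log2(FPKM + 1) without a filter 5, and the linear model 2, and leaving out single libraries gave 8 to 25. For the other apoptosis genes, where DDIT3 alone was called, DESeq2 called 4 (DDIT3, and CYCS, XIAP and BIRC5, which were lower). Limma without a filter and the linear model called 0 each, and leaving out single libraries gave 0 to 2. At an unadjusted p under 0.05, limma without a filter had 19 of 66 of these genes, against 3085 of 32052 over all genes. The linear model had 15 of 56 at this p, against 2165 of 14707. PRMT5 had a log2 fold change of -1.49 in the linear model, with an adjusted p of 0.091. The cause of these changes was not tested.

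Replicate numbers 1 to 3 in the labels are shared by both groups. Deviations of same-numbered libraries from their group means correlated at 0.0349, -0.0103 and -0.0150, and only those numbered 1 correlated best with their own number, so the numbers were not taken to pair the libraries. With the replicate block, edgeR called 0 genes, and so 0 of the other apoptosis genes. At an unadjusted p under 0.05 it had 2382 of 20295 genes, and 19 of 64 of the other apoptosis genes. PRMT5 had a log2 fold change of -1.62 with an edgeR adjusted p of 0.144 in this fit. The block changed no call of a BCL2 family gene at the adjusted p. At an unadjusted p under 0.05, 3 of the 10 genes passed with the block, against 2 in edgeR without it. DESeq2 gave 3, beside 2668 of 20295 genes, and limma on log2(FPKM + 1) gave 1, beside 2309 of 14707. Over all alternatives this number ran from 1 to 3. Only 3 libraries a group of 1 cell line were measured, BBC3 had the fewest counts, and protein levels, cleavage and isoforms were not measured.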

Other observations

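Some genes of the apoptosis lists took a high or a low level in single libraries without regard to the group, as BCL2L2 did. MYC, which can sensitize cells to apoptosis, had 893, 16102 and 961 counts in GFPkd and 813, 756 and 17121 counts in PRMT5kd. The high libraries for MYC were GFPkd replicate 2 and PRMT5kd replicate 3, while those for BCL2L2 were GFPkd replicates 1 and 3 and PRMT5kd replicate 1, so the patterns were not the same. Of 9963 genes with a mean of at least 10 CPM, 89 (0.893%) differed over 5-fold between libraries of one group, and BCL2L2 and MYC were the 2 on the lists used here. None of the 10 BCL2 family genes was among them, and BCL2L11 had the widest range of those, 2.20-fold in FPKM within GFPkd and 2.05-fold within PRMT5kd.

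BCL2L2 shares exonic sequence with the read-through gene BCL2L2-PABPN1, which had 118, 78 and 103 counts in GFPkd and 38, 158 and 317 counts in PRMT5kd. PABPN1 itself had 6454, 6010 and 5711 counts in GFPkd and 5029, 7358 and 5319 counts in PRMT5kd, without swings of this size. In PRMT5kd, BCL2L2-PABPN1 was highest in replicate 3, the library with the lowest BCL2L2, but its counts did not add up to those missing from BCL2L2. In GFPkd it went the other way, as replicate 2 had the lowest counts of both BCL2L2 and BCL2L2-PABPN1. These genes were singled out after their values were seen, and the cause of the swings was not tested.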
